A study of Mus musculus with 24 samples.

Results

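Hemoglobin is built from alpha and beta globin chains, and adult mouse red cells make them from 4 genes: Hba-a1 and Hba-a2 for the alpha chain, Hbb-bs and Hbb-bt for the beta chain. The transcripts of these 4 genes were followed through 24 RNA libraries of extracellular vesicles from mouse plasma. The genes were taken by symbol, as 4 of the 21960 genes in the table, with earlier results of these data known. All 4 passed the filter on low counts that kept 4112 genes for testing. Vesicles are membrane-bound particles that cells shed into blood, and they were precipitated from plasma before RNA extraction.

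Every animal was a male C57BL/6J mouse, an inbred strain, with no further allele or agent named in the labels and no age given in the sources used here. The groups of 6 animals were bile duct ligation (BDL) at day 15 after surgery, sham surgery at day 15, BDL at day 8 and sham at day 8. BDL ties off the duct that carries bile to the gut and is used as a model of cholestatic liver injury. The comparisons asked how vesicle RNA differed between ligated and sham animals at each day, and between days within each kind of surgery.

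Erythroid cells fill with hemoglobin as they mature. A mouse reticulocyte, the young red cell that has just lost its nucleus, still holds globin mRNA and translates it for a short time in the circulation. Erythroblasts keep alpha and beta chain production close to balance, since free alpha chains precipitate and damage the cell. C57BL/6J mice carry the Hbb-s haplotype at the beta globin locus, in which Hbb-bs and Hbb-bt encode nearly identical chains. Heme, the iron-bearing group held by each chain, is made by a pathway whose first erythroid step is run by Alas2.

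In the GENCODE M21 annotation of GRCm38, Hba-a1 (ENSMUSG00000069919, chr11:32283511-32284465, plus strand) and Hba-a2 (ENSMUSG00000069917, chr11:32296489-32297298, plus strand) lie in the alpha cluster. Hbb-bs (ENSMUSG00000052305, chr7:103826534-103828096, minus strand) and Hbb-bt (ENSMUSG00000073940, chr7:103812524-103813996, minus strand) lie in the beta cluster. Each gene is protein-coding with 3 exons. The coding sequences of Hba-a1 and Hba-a2 were identical at 425 of 426 bases, and those of Hbb-bs and Hbb-bt at 440 of 441. Alpha and beta coding sequences were 57.3% to 57.5% identical.

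The promoters are shown as background on the 4 genes, and their part in the levels that follow was not tested. Each run holds the 250 bases before the transcription start in RefSeq (GRCm38.p6), read along the gene's own strand. Capitals mark 4 short motifs searched on both strands: the TATA box as TATAA, the box bound by NF-Y as CCAAT, the box bound by Klf1 as CACCC and the GATA motif as GATAA.
Hba-a1, chr11:32283422-32283671, plus strand: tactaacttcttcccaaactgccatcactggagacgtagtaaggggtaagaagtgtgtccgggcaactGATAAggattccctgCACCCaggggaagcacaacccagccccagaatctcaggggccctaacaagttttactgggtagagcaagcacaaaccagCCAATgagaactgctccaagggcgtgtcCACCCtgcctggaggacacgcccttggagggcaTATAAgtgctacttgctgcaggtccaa
Hbb-bs, chr7:103827929-103828178, minus strand: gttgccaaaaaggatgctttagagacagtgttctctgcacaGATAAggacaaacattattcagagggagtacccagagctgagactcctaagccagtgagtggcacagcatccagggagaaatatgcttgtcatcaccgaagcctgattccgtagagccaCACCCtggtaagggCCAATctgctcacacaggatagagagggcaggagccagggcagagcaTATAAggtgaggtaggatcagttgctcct
Hbb-bt, chr7:103813924-103814173, minus strand: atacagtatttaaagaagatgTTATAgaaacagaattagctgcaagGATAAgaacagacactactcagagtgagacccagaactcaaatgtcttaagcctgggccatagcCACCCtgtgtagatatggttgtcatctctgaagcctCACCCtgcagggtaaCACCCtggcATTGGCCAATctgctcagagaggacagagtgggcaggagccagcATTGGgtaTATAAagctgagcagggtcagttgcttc

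The promoter of Hba-a2 (chr11:32296242-32296491, plus strand) is not printed because it shared an identical run of 297 of 300 bases with that of Hba-a1. The Hbb-bs and Hbb-bt promoters were 69.3% identical when aligned, and alpha against beta promoters 45.9% to 49.3%. TATAA began 27 bases before the start in Hba-a1, 30 in Hba-a2, 29 in Hbb-bs and 28 in Hbb-bt. CCAAT on the plus strand began 88, 91, 76 and 75 bases before the start in the same order of genes. In Hbb-bt the run ATTGGCCAAT holds CCAAT on each strand, end to end, and no other marked motifs overlap in these windows. Among 32851 RefSeq promoter windows of the same length, TATAA was found in 22.8%, CCAAT in 33.8%, CACCC in 52%, GATAA in 22.6% and all 4 motifs in 0.968%. All 4 hemoglobin promoters held all 4 motifs, which describes these letters only. For all 4 genes the RefSeq start lies inside the GENCODE gene, so part of the window overlaps that gene's annotated span.

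Total counts per library ran from 101733 to 937963. Lars2, the gene with the most counts in each library, held 31.6% to 52.7% of them. At day 8, libraries 4 to 6 had 535737 to 937963 counts and libraries 1 to 3 had 101733 to 349386. The labels name liver as the tissue and extracellular vesicles as the site. Hepatocyte markers summed to 0.393% to 2.91% of counts in BDL at day 15, 0.0113% to 0.0227% in sham at day 15, 0.0551% to 0.520% in BDL at day 8 and 0.00784% to 0.0216% in sham at day 8. The third BDL library of day 8 stood apart, with 24.7% of its counts in Gm10800 and a normalisation factor of 0.667 against 0.860 to 1.24 elsewhere. Gm10800 also held 4.54% and 8.28% in BDL libraries 1 and 2 of day 15, in a group that ran from 0.0684% to 8.28%, against 0.00382% to 0.0238% in sham at day 15. In the other 5 BDL libraries of day 8 it held at most 0.242%, against 0.00186% to 0.0187% in sham at day 8. This predicted gene is named because of its share, which was seen first.

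The hemoglobin genes together held 7.82% ± 2.80 of the counts in the table (SD, n = 24 libraries), between 4.14% and 15.6%. In BDL at day 15 the lowest, median and highest shares were 4.14%, 5.44% and 9.32%, against 5.72%, 6.49% and 12.1% in sham at day 15. In BDL at day 8 they were 7.48%, 9.97% and 15.6%, against 5.49%, 6.70% and 7.93% in sham at day 8. At day 8, 5 of 6 BDL libraries lay above every sham library, and the exception was BDL library 3, which has the highest Gm10800 share. Without it the BDL mean was 11.3%, against 10.7% with it and 6.79% in sham. BDL library 5 (7.949%, 95% counting interval 7.88% to 8.01%) was barely above sham library 1 (7.9345%, 7.77% to 8.10%), and their intervals overlapped. Of counts outside Lars2, day 8 shares overlapped, at 10.9% to 29.0% in BDL against 11.4% to 15.5% in sham. Over normalised library sizes they did not, at 8.39% to 19.4% in BDL against 5.49% to 8.09% in sham. At day 15 the groups overlapped widely, and 3 of 6 BDL libraries lay below every sham library: libraries 1 and 2, with the high Gm10800 shares, and library 5, where Gm10800 held 1.15%. The BDL mean at day 15 was 6.62% without library 1 and 6.48% without library 2. The part of Gm10800 in these shares was not tested. Exact 95% binomial intervals of the single shares extended 0.0576 to 0.167 percentage points to either side and cover counting error only. No test was run on the summed share.

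**Figure D1:**
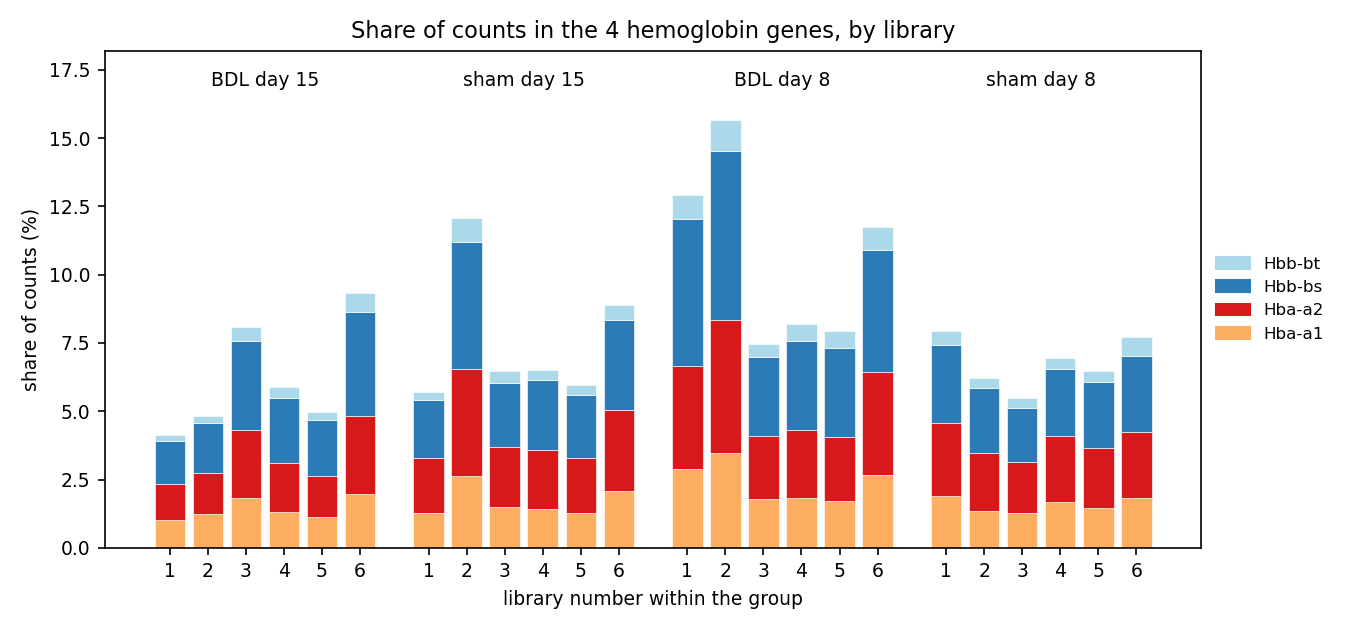
Share of all counts in the table (%, vertical axis) held by each hemoglobin gene, stacked for each of the 24 libraries and ordered by group. BDL libraries of day 8 reach 7.48% to 15.6%, and each bar is made up mainly of Hbb-bs and Hba-a2, with Hbb-bt as the thinnest layer.

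The make-up of the hemoglobin counts varied little between libraries. Hbb-bs made up 35.4% to 41.8% of them, Hba-a2 29.3% to 35.3%, Hba-a1 21.1% to 26.1% and Hbb-bt 5.00% to 8.74%. Levels between genes were compared per kilobase of transcript, as TMM-normalised CPM (counts scaled to a common library size) divided by transcript length. On that scale the median over 24 libraries was 42861 for Hbb-bs, 42624 for Hba-a2, 23983 for Hba-a1 and 6771 for Hbb-bt. In each of the 12 BDL libraries the order was Hbb-bs, Hba-a2, Hba-a1, Hbb-bt. In sham libraries Hba-a2 came before Hbb-bs in 4 of 6 at day 15 and 5 of 6 at day 8. Hbb-bs and Hba-a2 were neighbours whose ranges overlapped in every group, while Hbb-bt was the lowest of the 4 genes in every library. Transcripts of the alpha genes share 389 windows of 75 bases, the read length, which is 62.2% of those in Hba-a1 and 81% of those in Hba-a2. The beta genes share 356 such windows, 64.3% of those in Hbb-bs and 56.6% of those in Hbb-bt. The division of reads within each pair is uncertain for that reason, whereas no window is shared between alpha and beta transcripts.

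At day 8 all 4 hemoglobin genes were higher in BDL than in sham vesicles, by 0.83 to 1.08 on the log2 scale. All of these values are from edgeR's quasi-likelihood test with Benjamini-Hochberg adjustment over all genes, with calls at an adjusted p under 0.05. Against these 4 of 4 called members, 3.14% of all tested genes were called in this comparison, and 2.77% were called higher.

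Hbb-bs, the beta chain gene given more counts, had a lowest, median and highest level of 34304, 48407 and 77068 CPM in BDL, against 20059.9, 22932 and 29359 CPM in sham. Every BDL library lay above every sham library, a pattern that 1.97% of all tested genes showed. On the log2 scale the fold change was 1.08 (SE 0.24, adjusted p = 0.0121). Hbb-bt, the beta chain gene given fewer counts, had 6748, 8501 and 13752 CPM in BDL, against 3579, 3672 and 7069 CPM in sham. Here 4 of 6 BDL libraries lay above all of sham, and the sixth sham library was well above the other 5. Its log2 fold change was 1.04 (SE 0.29, adjusted p = 0.0472).

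Hba-a1 had 17974, 29265 and 43326 CPM in BDL, against 12615, 14779.8 and 19001 CPM in sham, and 5 of 6 BDL libraries lay above all of sham. Its log2 fold change was 0.91 (SE 0.23, adjusted p = 0.0263). Hba-a2, the alpha chain gene given more counts, had 24776, 39822 and 60345 CPM in BDL, against 18672, 21684 and 25939 CPM in sham. Again 5 of 6 BDL libraries lay above all of sham, with log2 fold change 0.83 (SE 0.23, adjusted p = 0.0438). For each of the 4 genes, the BDL library was the higher one in 6 of 6 pairs with the same number. Since plasma pools vesicles of many sources, a change in the number of cells of a type and a change in RNA per cell cannot be told apart.

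The size of the difference at day 8 depended on which libraries were compared. Among libraries 1 to 3, log2 fold changes were 1.36 for Hbb-bs, 1.32 for Hbb-bt, 1.22 for Hba-a1 and 1.09 for Hba-a2 (adjusted p = 0.00398 to 0.0153, edgeR). Among the deeper libraries 4 to 6 they were 0.66, 0.67, 0.46 and 0.43 in the same order of genes, and none was called (adjusted p = 0.122 to 0.338). Hbb-bs kept its call in all 12 fits that left out 1 day 8 library. Only Hbb-bs was called without BDL library 1 or 2, or without sham library 2, 3, 4 or 5 (1 of 4 genes). Both Hbb-bs and Hba-a1 were called without BDL library 3 or 6, or sham library 1 (2 of 4 genes).

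**Figure D2:**
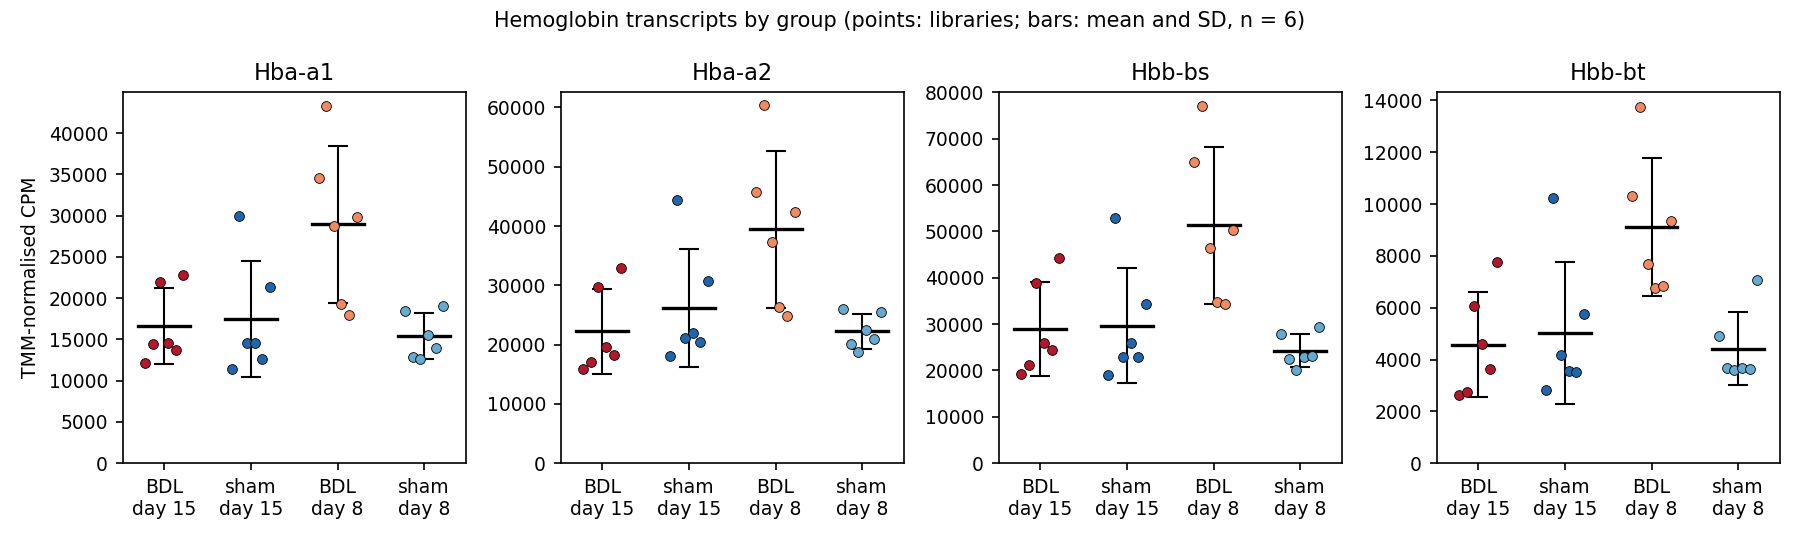
TMM-normalised CPM (vertical axis, from 0) of Hba-a1, Hba-a2, Hbb-bs and Hbb-bt in each library, with group mean and SD (n = 6). The highest point of each panel is of BDL at day 8, and only for Hbb-bs do all 6 of them clear sham at day 8.

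At day 15 none of the 4 genes was called between BDL and sham vesicles, while 4.55% of all tested genes were. Hbb-bs had 19180.2, 25179 and 44231 CPM in BDL, against 18927, 24482 and 52866 CPM in sham, with log2 fold change -0.03 (SE 0.24, adjusted p = 0.966). Hbb-bt had 2621, 4122 and 7750 CPM in BDL, against 2840.06, 3869.7 and 10244 CPM in sham, with log2 fold change -0.13 (SE 0.29, adjusted p = 0.859). The ranges overlapped almost entirely, and the highest level of each beta gene was in the second sham library.

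Hba-a1 had 12117, 14475 and 22835 CPM in BDL at day 15, against 11469, 14588 and 29931 CPM in sham. Its log2 fold change was -0.07 (SE 0.23, adjusted p = 0.913). Hba-a2 had 15926, 18886.5 and 32974 CPM in BDL, against 18102, 21585 and 44326 CPM in sham, and its log2 fold change was -0.23 (SE 0.23, adjusted p = 0.642). For Hba-a2, 2 of 6 BDL libraries lay below all of sham. Without the second sham library the log2 fold change was above 0 for Hbb-bs (0.21), Hbb-bt (0.20) and Hba-a1 (0.15). Hbb-bs was also above 0, by at most 0.06, without BDL library 1, 2, 4 or 5 or sham library 6, and Hba-a1, at 0.01, without BDL library 1. Over the 12 fits without 1 library, Hba-a2 ran from -0.38 to -0.02.

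Averaged over both days, Hbb-bs was the only one of the 4 genes called, with log2 fold change 0.52 (SE 0.17, adjusted p = 0.0433), where 10.6% of all tested genes were called. Hba-a1 stood at 0.42 (adjusted p = 0.0973), Hbb-bt at 0.45 (adjusted p = 0.161) and Hba-a2 at 0.30 (adjusted p = 0.261). The call of Hbb-bs was kept in 10 of 24 fits without 1 library: those without BDL library 1, 2, 4 or 5 of day 15, sham library 2 of day 15, BDL library 3, 4 or 5 of day 8, or sham library 1 or 6 of day 8. Without the second sham library of day 15, Hba-a1 and Hbb-bt were called too (3 of 4 genes), and without each of the other 14 libraries no hemoglobin gene was.

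The BDL effect at day 15 minus that at day 8 was -1.11 for Hbb-bs, -1.17 for Hbb-bt, -0.98 for Hba-a1 and -1.06 for Hba-a2. The unadjusted p of these differences ran from 0.0026 to 0.00766 in edgeR's quasi-likelihood test, and the adjusted p from 0.674 to 0.718, so none passed. edgeR called 0 of 4112 genes (0%) in this comparison, with 234 at an unadjusted p under 0.05, and DESeq2 called 1, which was no hemoglobin gene. Without the filter on low counts, 3 of 4 hemoglobin genes passed (Hbb-bs, Hba-a2 and Hbb-bt).

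Within BDL animals all 4 genes were lower at day 15 than at day 8, where 4.35% of all tested genes were called and 2.09% were called lower. The log2 fold change was -0.83 for Hbb-bs (SE 0.24, adjusted p = 0.0448) and -0.99 for Hbb-bt (SE 0.29, adjusted p = 0.0463), by edgeR. For the alpha genes it was -0.80 for Hba-a1 (SE 0.23, adjusted p = 0.0442) and -0.83 for Hba-a2 (SE 0.23, adjusted p = 0.0358). The ranges overlapped: 4 of 6 day 15 libraries lay below all day 8 libraries for Hbb-bs, Hba-a1 and Hba-a2, and 5 of 6 for Hbb-bt. With only the BDL libraries in the fit none of the 4 was called (adjusted p = 0.0581 to 0.1). None was called either without day 15 library 1, 2, 4 or 5, or day 8 library 1, 2 or 6, and only the alpha genes (2 of 4) were called without day 8 library 4 or 5.

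Within sham animals the log2 fold changes of day 15 over day 8 were 0.29 for Hbb-bs, 0.23 for Hba-a2 and 0.18 for both Hba-a1 and Hbb-bt, none of them called. Without the second sham library of day 15, Hba-a1 stood at -0.05 and Hbb-bt at -0.16. edgeR called 0 of 4112 genes (0%) there, with 439 at an unadjusted p under 0.05, and DESeq2 called 5. The sham comparison shares no library with that in BDL animals, whereas each BDL group enters both a comparison with sham and the comparison of days.

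**Figure D3:**
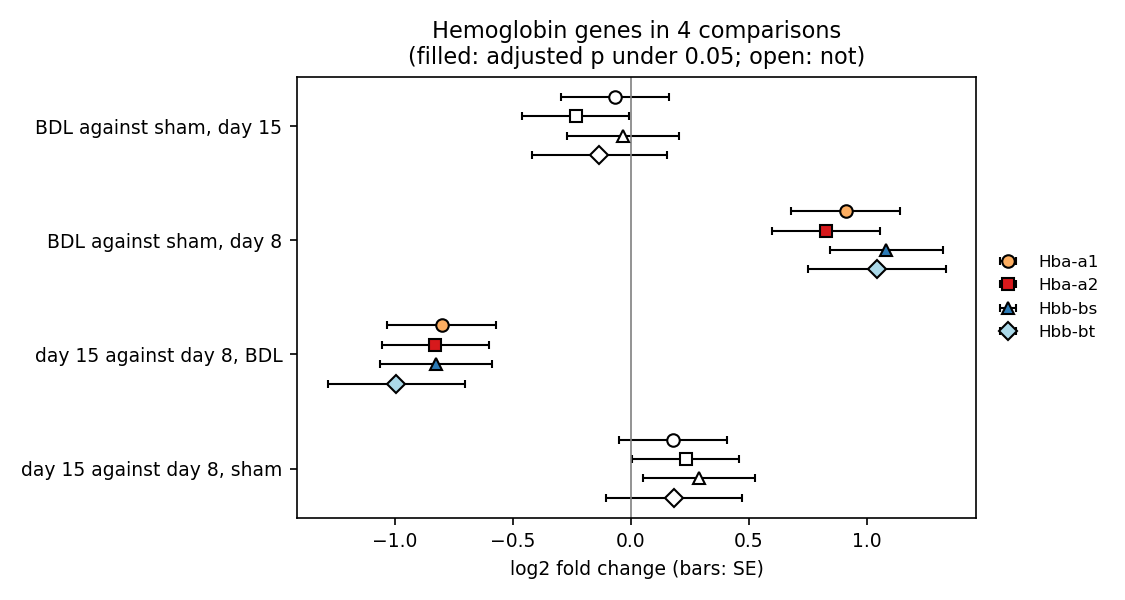
Log2 fold changes (horizontal axis) with SE bars for the 4 hemoglobin genes in 4 comparisons, with filled symbols for adjusted p under 0.05. All 4 genes lie between 0.83 and 1.08 for BDL against sham at day 8 and between -0.99 and -0.80 for day 15 against day 8 in BDL, and near 0 with open symbols in the other 2.

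Ratios within a library do not depend on its depth or normalisation, and 12 of them were tested (3 ratios in 4 comparisons) by two-sided exact permutation of 6 against 6 libraries, with 0.00216 as the smallest p possible. The ratio of alpha to beta counts was lower in BDL than in sham vesicles at day 8. Its lowest, median and highest values were 1.04, 1.12 and 1.22 in BDL, against 1.22, 1.32 and 1.44 in sham. All 6 BDL libraries lay below all 6 sham libraries, with the nearest ones at 1.218 and 1.221. The mean was 1.13 ± 0.0747 in BDL and 1.32 ± 0.0750 in sham (SD, n = 6 each), a difference of -0.22 in mean log2 ratio (SE 0.051, exact permutation p = 0.00216, adjusted p = 0.026). Libraries 1 to 3 gave -0.20 and libraries 4 to 6 gave -0.24, each with the smallest exact p that 3 against 3 allows, 0.1. Paired by library number, a pairing that is not established, 6 of 6 BDL libraries had the lower ratio. The exact sign-flip p was 0.0312, the smallest it can give, which adjusted to 0.188. Without sham library 1 or 4 the adjusted p was 0.0519.

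At day 15 the alpha to beta ratio had a lowest, median and highest value of 1.07, 1.14 and 1.31 in BDL, against 1.18, 1.27 and 1.36 in sham. Here 4 of 6 BDL libraries lay below all of sham, while the first and second BDL libraries, those with the high Gm10800 shares, lay among the sham libraries. The difference in mean log2 ratio was -0.11 (SE 0.056, exact permutation p = 0.0801, adjusted p = 0.192) and did not pass. It was -0.14 in tests without BDL library 1 (adjusted p = 0.0935) or without BDL library 2 (adjusted p = 0.0831). Between days it was 0.06 in BDL (exact permutation p = 0.333) and -0.05 in sham (exact permutation p = 0.31). Divided by transcript length, the median alpha to beta ratio was 1.195 in BDL at day 15, 1.35 in sham at day 15, 1.18 in BDL at day 8 and 1.39 in sham at day 8.

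The ratio of Hbb-bs to Hbb-bt counts averaged 6.57 ± 0.827 in BDL at day 15, 6.18 ± 0.796 in sham at day 15, 5.59 ± 0.506 in BDL at day 8 and 5.68 ± 0.808 in sham at day 8 (SD, n = 6 each). No comparison of this ratio passed after adjustment. In BDL, day 15 exceeded day 8 by 0.23 in mean log2 ratio (SE 0.091, exact permutation p = 0.0346, adjusted p = 0.104), and 4 of 6 day 15 libraries lay above all day 8 libraries. BDL against sham differed by 0.09 at day 15 (exact permutation p = 0.411) and -0.02 at day 8 (exact permutation p = 0.89). The lowest value of all libraries was 4.15, in the sixth sham library of day 8.

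The ratio of Hba-a1 to Hba-a2 counts was higher in BDL than in sham vesicles at day 15. Its lowest, median and highest values were 0.693, 0.750 and 0.848 in BDL, against 0.615, 0.669 and 0.694 in sham, and 5 of 6 BDL libraries lay above all of sham. The means were 0.757 ± 0.0510 in BDL and 0.662 ± 0.0316 in sham (SD, n = 6 each), a difference of 0.19 in mean log2 ratio (SE 0.048, exact permutation p = 0.00433, adjusted p = 0.026). It was called in all 12 tests that left out 1 library. At day 8 the means were 0.735 ± 0.0243 in BDL and 0.689 ± 0.0367 in sham, a difference of 0.09 (SE 0.037, exact permutation p = 0.0325, adjusted p = 0.104). Without the sixth sham library the day 8 difference was 0.12 (exact permutation p = 0.00649, adjusted p = 0.026). The transcripts of the alpha genes share most of their windows, so this ratio rests on the reads that tell them apart and on how the authors' counting divided the rest.

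**Figure D4:**
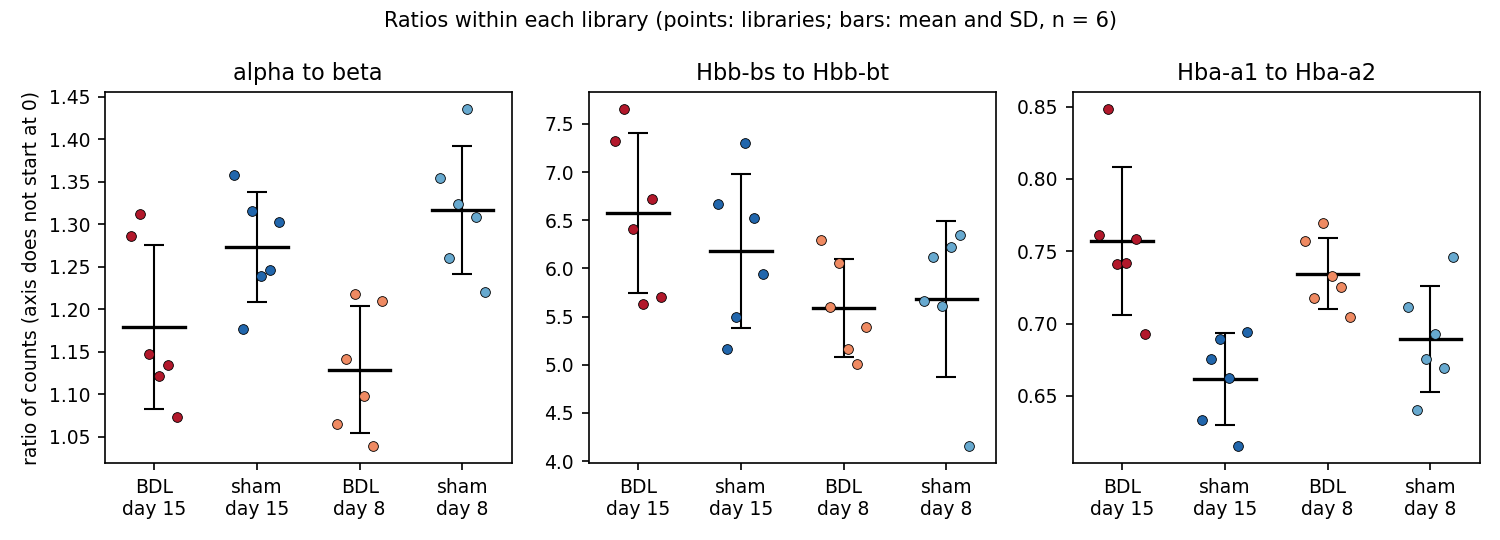
Ratios of counts within each library (vertical axes do not start at 0) for alpha to beta, Hbb-bs to Hbb-bt and Hba-a1 to Hba-a2, with group mean and SD (n = 6). Alpha to beta points of BDL at day 8 (1.04 to 1.22) lie below those of sham at day 8 (1.22 to 1.44), and Hba-a1 to Hba-a2 points of BDL at day 15 lie above those of sham at day 15 except for 1 library.

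Other genes of red cells were followed in 5 lists, of which 87 of 129 genes were tested. At day 8, 19 of the 87 were called higher in BDL than in sham vesicles and 0 lower, where 2.77% of all tested genes were called higher. Their median log2 fold change was 0.77, against 0.02 over all tested genes. With the library number as a block, 32 were called, though pairing by number is not established. Without 1 library the count ran from 4, without the fifth sham library, to 25, without the sixth, and it fell to 12 or fewer without BDL library 1, 2, 3 or 5 or sham library 1, 2, 3, 4 or 5. At day 15, 5 of the 87 were called higher and 0 lower, a share near the 3.48% of all tested genes that were called higher. Their median was 0.28, against -0.02 over all genes. Leaving out 1 library there gave 2 without BDL library 5, 3 without BDL library 3 or sham library 1 or 5, and 15 without sham library 2.

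In the list of heme synthesis and mitochondrial iron, 12 of 12 tested genes had a log2 fold change above 0 at day 8 and 9 of 12 at day 15. Over all tested genes the median was 0.02 at day 8 and -0.02 at day 15. Of all tested genes 2.77% were called higher at day 8, and of these 12 genes 1 was. This was Alas2, the erythroid form of the enzyme that starts heme synthesis, with 1455, 1946 and 2983 CPM as lowest, median and highest in BDL, against 667, 748 and 1280 CPM in sham. The groups did not overlap, and its log2 fold change was 1.29 (SE 0.27, adjusted p = 0.00836, edgeR). At day 15 Alas2 stood at 0.14 (adjusted p = 0.828), and the gene called in this list was Fam210b, a mitochondrial protein tied to erythroid iron use, at 2.07 (SE 0.38, adjusted p = 0.000771).

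Of the genes for the red cell membrane and skeleton, 17 of 18 tested had a log2 fold change above 0 at day 8 and 11 of 18 at day 15. Calls were made for 3 of 18 at day 8, against 2.77% of all tested genes called higher, and for none at day 15. Epb42, a protein that links the membrane to its skeleton, rose by 1.82 on the log2 scale (SE 0.46, adjusted p = 0.0267, edgeR). Slc4a1, the band 3 anion exchanger, rose by 1.48 (SE 0.42, adjusted p = 0.0494). The transferrin receptor gene Tfrc, through which erythroblasts take up iron, stood at 1.58 and was not called (adjusted p = 0.077).

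Of these 5 erythroid lists, reticulocyte maturation and organelle clearance had the most calls, 11 of 25 tested at day 8 and 3 of 25 at day 15. All were higher in BDL, against 2.77% and 3.48% of all tested genes called higher at those days. At day 8, 23 of the 25 had a log2 fold change above 0, and at day 15, 21 of the 25 did. Isg20, an exonuclease gene, rose by 1.23 at day 8 (SE 0.25, adjusted p = 0.00777, edgeR) and Rnf10, a ubiquitin ligase gene, by 1.02 (SE 0.23, adjusted p = 0.0147). The calls at day 15 included Fbxo30 at 2.24 (adjusted p = 0.0176) and Xpo7 at 1.48 (adjusted p = 0.0299). Xpo7, a nuclear transport gene used as erythroid nuclei condense, was called at both days.

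Among red cell enzymes and antioxidant genes 4 of 16 tested were called higher at day 8 and 1 of 16 at day 15. Of all tested genes 2.77% and 3.48% were called higher at those days. At day 8, 16 of 16 had a log2 fold change above 0, and at day 15, 14 of 16 did. Gpx1, a glutathione peroxidase, rose by 1.22 at day 8 (SE 0.24, adjusted p = 0.00638, edgeR), Prdx2, the main peroxiredoxin of red cells, by 1.12 (SE 0.27, adjusted p = 0.0188) and Cat, catalase, by 0.81 (SE 0.22, adjusted p = 0.0407). Bpgm, which makes the phosphate that lowers the oxygen affinity of hemoglobin, stood at 0.96 (adjusted p = 0.0596). Gsr, glutathione reductase, was the call at day 15, at 1.13 (SE 0.26, adjusted p = 0.00975).

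None of 16 tested erythroid transcription factor genes was called at day 8 or day 15, where 3.14% and 4.55% of all tested genes were. Their median log2 fold change was 0.02 at day 8 (-0.86 to 1.22, 8 of 16 above 0). At day 15 it was -0.17 (-0.81 to 1.17, 3 of 16 above 0). Averaged over both days, 2 of the 16 were called higher, against 7.1% of all tested genes. Gata1 and Klf1, which drive globin transcription in erythroblast nuclei, were too low to be tested. Gata1 had 32 counts over the 6 libraries of BDL at day 15, 30 in sham at day 15, 37 in BDL at day 8 and 50 in sham at day 8. Klf1 had 15, 15, 21 and 14 counts in the same order of groups. The chaperone gene Ahsp, on the list of globin chaperones and translation control, is not analysed here. Of the 3 tested genes of that list none was called at day 8 and 1 at day 15, against 2.77% and 3.48% of all tested genes called higher. This was Pgrmc1, a heme-binding membrane protein, which rose at day 15 by 2.32 (SE 0.53, adjusted p = 0.00718, edgeR). Its lowest, median and highest levels there were 36.1, 45.3 and 231 CPM in BDL, against 4.425, 14.45 and 26.05 CPM in sham.

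**Figure D5:**
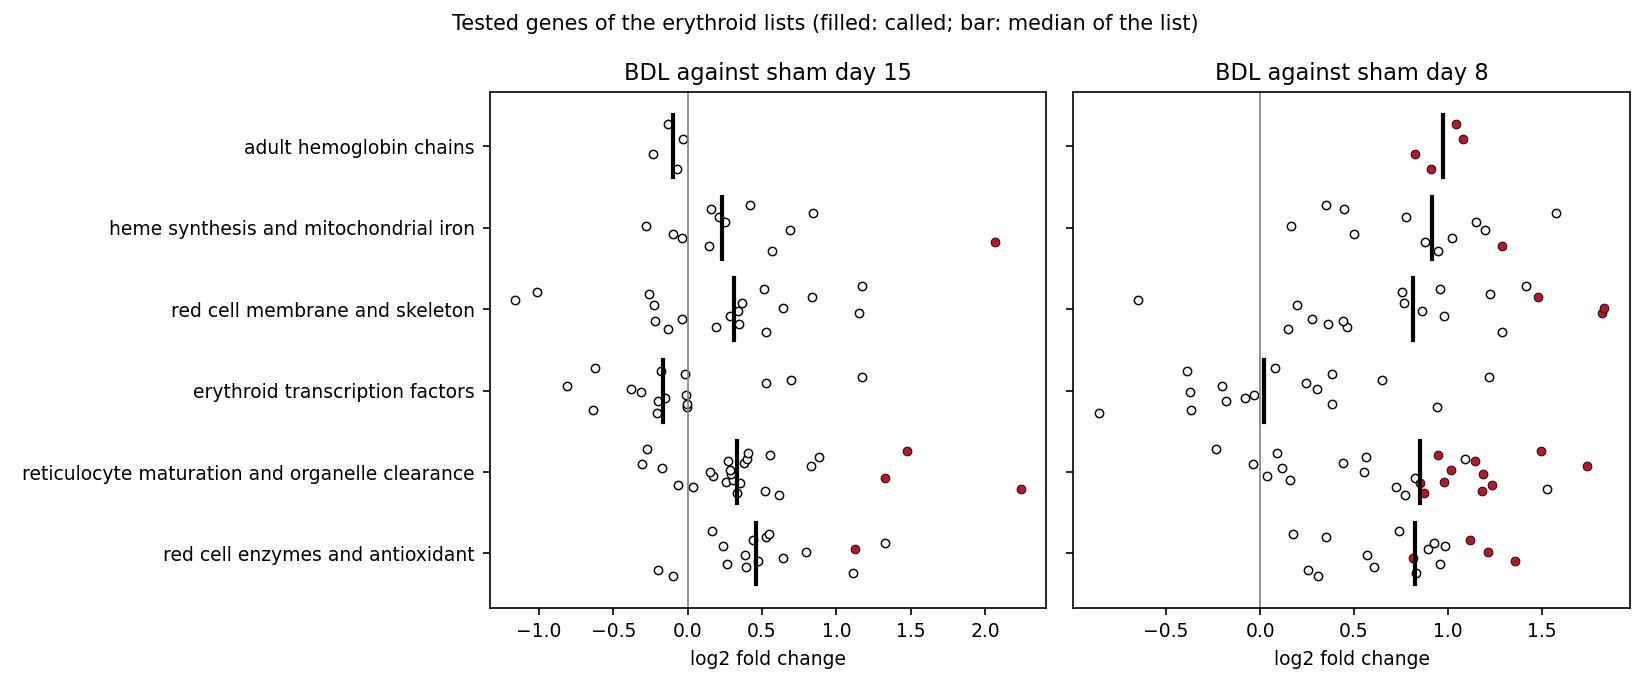
Log2 fold changes of BDL over sham (horizontal axis) for tested genes of the hemoglobin and 5 erythroid lists at day 15 and at day 8, with filled points for called genes and a bar at each list's median. At day 8 the medians of all lists but the transcription factors lie between 0.81 and 0.98, and at day 15 between -0.10 and 0.46.

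Between days in BDL animals, 1 of 87 erythroid list genes was called, Isg20, which was lower at day 15 with log2 fold change -1.09 (SE 0.25, adjusted p = 0.0177, edgeR). That count is no larger a share than the 2.09% of all tested genes called lower. Their median was -0.23, against -0.83 for the 4 hemoglobin genes and -0.04 over all tested genes. Alas2 stood at -0.86 and was not called (adjusted p = 0.0655). Leaving out 1 BDL library gave 1 to 8 calls, with 3 without day 15 library 3 or day 8 library 1 or 2, 2 without day 15 library 6, and 8 without day 8 library 3.

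Embryonic globin genes were at or near 0, with 0 counts for Hba-x and Hbb-bh2, 1 for Hbb-bh1 and 2 for Hbb-y over all 24 libraries. A count of 0 over all libraries allows a share of up to 3.17e-05% (3 counts), counting error only. The theta globin genes Hbq1a and Hbq1b had 19 and 42 counts in all. Myoglobin (Mb), the oxygen store of muscle, had 300 counts and cytoglobin (Cygb) 278, and both were tested. Neither was called between BDL and sham at either day. Averaged over both days Mb was called lower in BDL, with log2 fold change -1.33 (SE 0.40, adjusted p = 0.0286, edgeR), and Cygb stood at -0.34 (adjusted p = 0.595). Mb had 52 counts in BDL and 90 in sham at day 15, and 39 in BDL and 119 in sham at day 8. Its call was lost without BDL library 5 of day 15, BDL library 4 or 5 of day 8, or sham library 2 or 6 of day 8 (adjusted p up to 0.0710).

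In the hemoglobin and heme clearance list, 4 of 10 tested genes were called higher in BDL at day 15 and 5 at day 8. Of all tested genes 3.48% and 2.77% were called higher at those days. Trf, called at both days, is on the hepatocyte marker list too. Hp, haptoglobin, which binds free hemoglobin, had 180, 409 and 1172 CPM as lowest, median and highest in BDL at day 15, against 2.90, 23.95 and 55.6 CPM in sham, with log2 fold change 4.37 (SE 0.62, adjusted p = 2.3e-05, edgeR). At day 8 it had 43.1, 63.3 and 391 CPM in BDL, against 0, 10.7 and 21.1 CPM in sham, with log2 fold change 3.35 (SE 0.66, adjusted p = 0.00638). Its libraries did not overlap between BDL and sham at either day, and BDL lay wholly above sham in 2.38% of all tested genes at day 15. Hpx, hemopexin, which binds free heme and is on the hepatocyte marker list too, had a median of 1246 CPM in BDL and 0 CPM in sham at day 15, and 86.6 CPM in BDL and 0 CPM in sham at day 8. Between days in BDL animals Hp rose by 2.13 (adjusted p = 0.0202, edgeR), whereas the hemoglobin genes were lower at day 15. In that comparison 24 of 24 tested hepatocyte markers were called higher at day 15 as well.

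Markers of other blood and liver cells also moved. At day 8, 18 of 24 tested hepatocyte markers, 3 of 9 neutrophil markers and 2 of 7 monocyte and macrophage markers were called higher in BDL, and 0 of 23 platelet and 0 of 6 lymphocyte markers were called, against 2.77% of all tested genes called higher. Averaged over both days, 4 of 6 lymphocyte markers were called lower in BDL, with a median log2 fold change of -1.01, where 3.5% of all tested genes were called lower. That count was 2 without BDL library 2 or 5 or sham library 6 of day 15, or BDL library 4 or sham library 4 or 6 of day 8, and 1 without sham library 4 of day 15. Lymphocyte markers summed to a median of 0.0258% of counts in BDL and 0.0460% in sham at day 15, and 0.0262% in BDL and 0.0501% in sham at day 8. Neutrophil markers summed to 0.0799% to 0.231% of counts in BDL at day 8, against 0.0133% to 0.150% in sham, where Stfa1 and Stfa2l1 were at 0. Monocyte and macrophage markers summed to 0.0414% to 0.139% in BDL, where Clec4f was at 0, against 0.0507% to 0.0780% in sham. Between days in BDL animals, 24 of 24 hepatocyte markers were called higher at day 15 and 10 of 23 platelet markers lower, against 2.26% and 2.09% of all tested genes. Platelet markers summed to 0.249% to 0.419% of counts in BDL at day 15, against 0.206% to 0.520% in BDL libraries 1 to 3 and 1.02% to 2.10% in libraries 4 to 6 of day 8. Sham at day 8 was divided in the same way, with means of 0.370% in libraries 1 to 3 and 1.38% in libraries 4 to 6. In sham animals 0 of 23 platelet markers were called between days, with a median log2 fold change of -1.28, against -1.42 in BDL. The part of these markers in the hemoglobin results was not tested.

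The genes whose levels over the 24 libraries were most like those of the summed hemoglobin genes were Alas2 (Pearson r = 0.95), Fech (0.91), Bpgm (0.90), Ucp2 (0.88), Pabpc1 (0.87), Fam220a (0.87), Fam46c (0.87) and Isg20 (0.87). They were ranked by r of log2 CPM among 4108 genes averaging 20 CPM or more. Of the 8, 5 are on the erythroid lists, which hold 87 of the 4112 tested genes and were written with earlier results known. Fech encodes ferrochelatase, which puts iron into heme, and Pabpc1 encodes a protein that binds the poly(A) tails of mRNA. Alas2 had a Spearman rho of 0.93, an r of 0.94 after subtraction of group means, and an r of 0.93 without the 2 libraries farthest from the median. Within groups, r of the other 7 genes ran from 0.74 to 0.87. All points share the library and its normalisation, and the values are a description without a test.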

How the data were processed

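Vesicle RNA was measured in 24 libraries, 1 per animal, in 4 groups of 6 taken from the sample titles. Per the labels' protocols, ExoQuick was added to 250 µl of plasma, a miRNeasy kit gave total RNA, and stranded TruSeq libraries were made with no step against ribosomal RNA and no enrichment of poly(A) RNA, amplified over 15 PCR cycles, pooled by 12 and read in pairs of 75 nt. Pool membership is not known from the labels. The treatment text names ligation for sham animals too, while the titles match the treatment labels in every sample.

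The deposited values are expected counts per gene, all whole numbers, made with STAR and RSEM per the submitters' processing notes, without versions. The notes name hg38, while the gene IDs are mouse Ensembl IDs, so the build used was not established. Shares are of counts in this table. Coordinates are from GENCODE M21 (GRCm38), by ID. With no molecular identifiers, intervals cover counting error only.

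The filter was filterByExpr (minimum count 10, minimum total 15). After TMM normalisation, edgeR 4.0.16 in R 4.3.3 fitted a mean for each group over all 24 libraries and tested contrasts by quasi-likelihood, with Benjamini-Hochberg adjustment at 0.05. CPM are counts over the TMM effective library size of the tested genes. Ratios of counts were tested by exact permutation (924 arrangements) with p-values adjusted over 12 tests. Scripts were tested on simulated data. Alternatives were DESeq2 1.42.0, DESeq2's size factors, no filter, Lars2 or the hemoglobin genes left out of the library sizes, only the compared groups, a replicate block, day 8 libraries 1 to 3 or 4 to 6, and each library left out.

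To check pairing, deviations from group means were correlated between a BDL library and the sham library with its number. At day 8 r was 0.165 to 0.327, over 0.1 in 6 of 6, and the numbers were taken to pair libraries there. Libraries with different numbers were not correlated, so these r cannot show whether the numbers pair libraries. Depth and platelet markers divided both day 8 groups by number, and their part in r was not tested. The numbers were not taken to pair libraries at day 15 or between days.

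Named genes were the 4 hemoglobin genes, up to 3 called genes of each of 14 lists per day by smallest p, 10 genes set by name, and the 8 most like the summed hemoglobin genes. Not all of them are printed, and some are not reported here. The members and lists were chosen with earlier results of these data known.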

Additional observations from a re-analysis of the deposited data

Results flagged for a closer look

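The ratio of Hbb-bs to Hbb-bt counts in the sixth sham library of day 8 was 4.15, the lowest of its group, where the other 5 libraries had 5.60 to 6.34. Its gap to the next library, taken as a share of the whole range of the group, exceeded Dixon's 95% limit for 6 values. Shares, levels and ratios were checked in this way in 36 sets of 6 libraries, and chance alone marks about 1 in 20.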

How the results depend on the processing

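Hemoglobin genes called at day 8 (4 of 4 higher in BDL) stayed 4 with DESeq2, DESeq2's size factors, no filter, Lars2 or the hemoglobin genes left out of library sizes, only the compared groups, the replicate block and libraries 1 to 3, and fell to 0 among libraries 4 to 6. Leaving out 1 library gave 1 to 4. Averaged over days, 1 was called, 3 without the filter, 2 with the block and 0 to 3 without 1 library. The difference between days gave 0, and 3 without the filter. Day 15 against day 8 in BDL gave 4, but 0 with the block, 0 with only the compared groups and 0 to 4 without 1 library. No call of a hemoglobin gene at day 15 or between days in sham came under any of these settings, and no call reversed. Numbers were not taken to pair libraries at day 15 (r -0.031 to 0.113, 1 of 6 over 0.1) or between days. Pairing at day 8 is not established, since only libraries with the same number were correlated.

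Erythroid list genes called with the block were 32 at day 8, 8 at day 15 and 0 between days in BDL (19, 5 and 1 without it). Without 1 library they ran from 4 to 25, 2 to 15 and 1 to 8. Outside Lars2 the mean hemoglobin share was 12.1% in BDL at day 15, 14.9% in sham at day 15, 19.3% in BDL at day 8 and 13.1% in sham at day 8. The alpha to beta difference at day 8 was -0.20 among libraries 1 to 3, -0.24 among libraries 4 to 6 and -0.246 to -0.198 without 1 library. Paired by number it was -0.22 and was no longer called. The Hba-a1 to Hba-a2 difference at day 15 was 0.19 paired (sign-flip p = 0.0625, exact, adjusted p = 0.25), and at day 8 it ran from 0.0717 to 0.116 without 1 library. Apart from these ratios and the hemoglobin gene counts given above, pairing or the block changed no call of a ratio or hemoglobin gene. The cause of these changes was not tested.

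Over all genes, calls at day 8 were 114 higher and 15 lower, but 263 and 35 without the filter, 74 higher with only the compared groups, 72 and 4 among libraries 1 to 3, 24 and 7 among libraries 4 to 6, and 24 lower with DESeq2 or 33 with the block. At day 15 they were 143 and 44, but 553 and 135 without the filter and 71 lower with the block. Between days in BDL 93 higher and 86 lower became 377 and 275 without the filter, and 27 and 7 with the block. Averaged over days, 292 and 144 became 817 and 224 without the filter. In sham, 38 and 112 were called between days without the filter.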

Other observations

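Alas2 counts per 1000 hemoglobin counts averaged 15.9 ± 1.95 in BDL at day 15, 13.3 ± 1.80 in sham at day 15, 16.5 ± 1.35 in BDL at day 8 and 12.8 ± 1.61 in sham at day 8 (SD, 6 libraries a group). Values at day 8 ran from 15.3 to 18.4 in BDL, against 11.1 to 15.8 in sham, and at day 15 from 12.3 to 17.5 in BDL, against 10.7 to 16.002 in sham. The groups overlapped at both days. This ratio was chosen after its values were seen and has no test.

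Of the genes most like the summed hemoglobin genes over the libraries, Fam46c rose at day 8 in BDL by 1.18 on the log2 scale (SE 0.32, adjusted p = 0.0411, edgeR). Ucp2, an uncoupling protein of the mitochondrial membrane, was lower at day 15 than at day 8 in BDL, with log2 fold change -0.68 (SE 0.20, adjusted p = 0.0438). Pabpc1 was not called in either comparison (0.50 at day 8, adjusted p = 0.224; -0.41 between days in BDL, adjusted p = 0.294).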
